A study of Rattus norvegicus with 6 samples.

Results

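The genes that let circulating leukocytes hold on to the vessel wall were followed in brain capillaries of stroke-prone spontaneously hypertensive rats (SHRSP), which inherit high blood pressure and a tendency to stroke. Members were all probe sets that the annotation of the RG_U34A rat array assigned to Icam1, Icam2, Vcam1, Sele, Selp, Itgam or Itgb2 alone. Of these 7 genes 6 had such a probe set, which gave 8 probe sets of the 8799 on the array. Itgb2 was not analysed here. Over all probe sets the annotation named 4736 genes.

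Leukocytes leave the blood in steps. The selectins of activated endothelium, E-selectin (Sele) and P-selectin (Selp, also stored in platelets), catch passing cells and let them roll. The immunoglobulin-like molecules ICAM-1, ICAM-2 and VCAM-1 on endothelium then bind leukocyte integrins, among them Mac-1, which is made of the alpha chain encoded by Itgam and the beta chain encoded by Itgb2. Inflammatory cytokines induce Icam1, Vcam1 and Sele through the transcription factor NF-kappa-B, while Icam2 is present on resting endothelium. Angiotensin II is known as one of the signals that raise endothelial adhesion molecules.

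The rats were 6 weeks old, and total RNA of their brain capillaries was measured on 6 arrays, 2 for each of 3 groups. The control group has no named drug. The ACEI group received the angiotensin-converting enzyme inhibitor lisinopril at 6 mg/kg per day, and the ARB group the angiotensin type 1 receptor blocker olmesartan at 4 mg/kg per day. A salt load of 1% NaCl stands in the labels, which do not settle whether every group or the controls alone received it. No normotensive strain was measured, so all values describe SHRSP. Nothing in the labels states whether the 2 arrays of a group came from separate animals or from pools, so p-values measure the spread between these samples, which may be technical.

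Upstream sequence could be read for part of the set. RefSeq (build GRCr8) gave a window of 250 bases before the start site of Icam1, Vcam1, Sele and Itgam. The windows were searched on both strands for the NF-kappa-B consensus, a motif of 10 letters whose first letter is free. The stretches of Icam1 (chr8:27829595-27829687, plus strand, the 93 bases before the first annotated base of the gene) and Vcam1 (chr2:206742784-206743033, minus strand) are shown because they held matches, which are in capitals.

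Icam1: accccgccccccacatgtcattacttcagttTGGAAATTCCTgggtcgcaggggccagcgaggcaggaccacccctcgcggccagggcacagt

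Vcam1: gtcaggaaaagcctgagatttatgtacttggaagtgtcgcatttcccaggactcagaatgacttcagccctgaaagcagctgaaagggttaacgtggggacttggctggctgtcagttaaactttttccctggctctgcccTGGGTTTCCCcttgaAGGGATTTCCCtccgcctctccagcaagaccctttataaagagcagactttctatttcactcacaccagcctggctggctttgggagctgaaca

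The Icam1 window had 2 overlapping positions, whose first bases lay 219 and 218 bases before the start site. Vcam1 had 3 positions, at 109, 94 and 93 bases, of which the last 2 overlap, so 2 separate blocks stand in capitals. The windows of Sele and Itgam held 0 matches. Of all 33469 windows of this length 11.2% held a match. The letters TATAAA stood in the Icam1 window 53 bases before the start site, in the Vcam1 window 60 bases before it and, on the opposite strand, at 62 bases, and not in the other windows, against 12.9% of all windows. A match describes the letters and does not show that a factor binds there.

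The arrays differed in ways that touch these genes. Across the log2 values of 5244 probe sets, which are not independent replicates, Pearson's r was 0.747 between the controls, against 0.906 for the ACEI pair and 0.88 for the ARB pair. The Gapdh 3'/5' signal ratio, a sign of RNA quality that is high in degraded RNA, was 7.31 on control 2, against 0.933 to 1.59 on the other arrays. Control 1 and ACEI 1 were run on 1 day with 1 chip lot, and the other 4 arrays later with a second lot. In every group the array numbered 1 and the array numbered 2 had different fluidics protocols. The median of 12 probe sets for bacterial transcripts (the foreign controls), a gauge of signal without rat RNA, was 105 and 94.4 on the ARB arrays and 20.4 to 26.3 on the others. Endothelial markers were present, 11 of 13 with a probe set and none at 0 on any array. On control 2, however, the junction molecule Pecam1 had an intensity of 194 against 5538 on control 1, and the clotting factor Vwf had 49.2 against 596. The transporters Slc2a1 and Slco1a4 were highest on control 2, at 66763 and 79016.

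Icam1, the inducible endothelial ligand of the leukocyte integrins LFA-1 and Mac-1, was the member with the clearest separation of treated from control arrays. Its probe set D00913_g_at had intensities of 5542 and 5525 in controls, 1706 and 2743 with ACEI, and 1925 and 2093 with ARB. Values per array are deposited intensities here and below. The control arrays lay within 1.00-fold of each other, and all 4 treated arrays lay below both of them. Means were 5533 ± 11.7 in controls, 2224 ± 733 with ACEI and 2009 ± 119 with ARB (SD, n = 2 each). In tissue RNA of this kind, fewer cells of a type and less RNA per cell cannot be told apart.

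**Figure D1:**
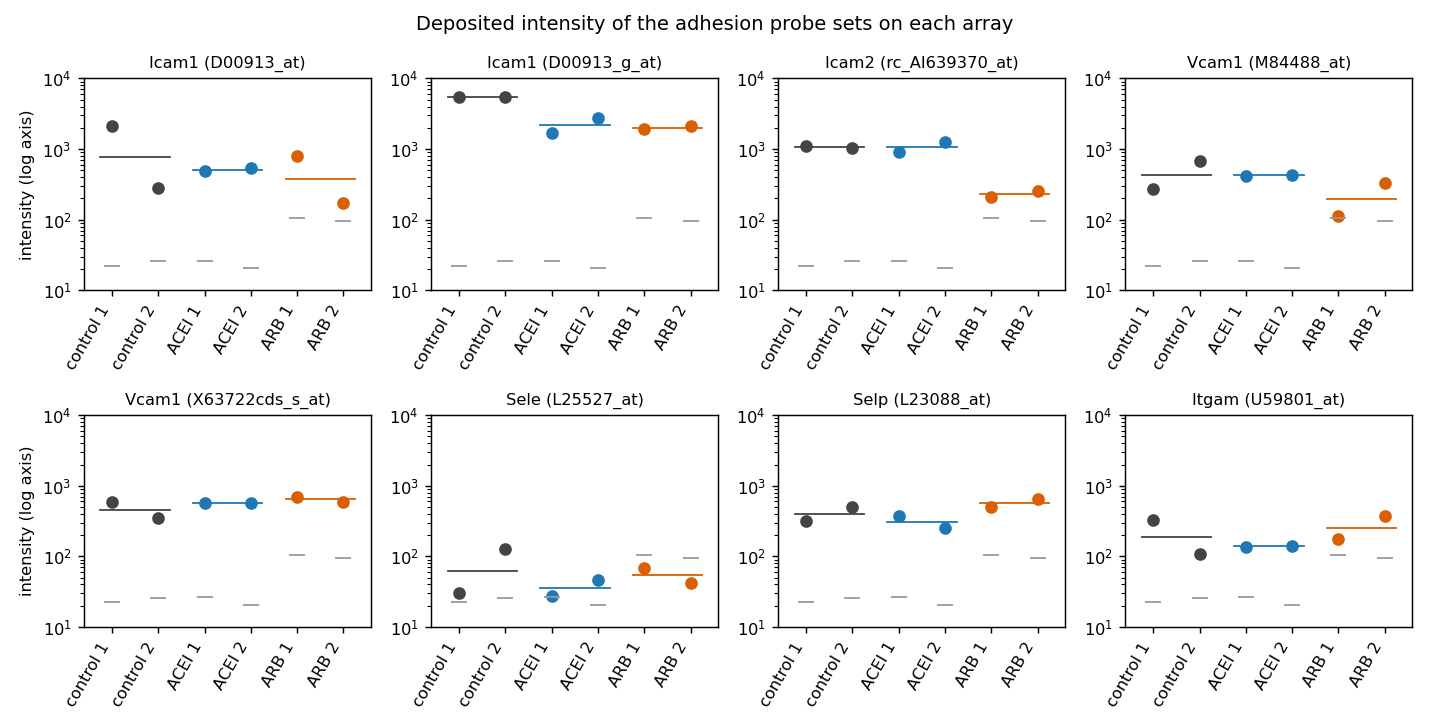
Deposited intensity of the 8 adhesion probe sets (log axis) on each array, with control, ACEI and ARB arrays as points, the geometric mean of each group as a horizontal line and the median of the 12 foreign-transcript control probe sets of the array as a grey dash. Icam1 D00913_g_at is at 5542 and 5525 on the controls and at most 2743 on the treated arrays, Icam2 is low on the ARB arrays alone (208 and 257), and Sele lies clear of the grey dash on control 2 (127 against 25.8) and nearer to it elsewhere.

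Differences are given as log2 of intensity plus an offset of 90, ± the SE of a linear model in limma over all 6 arrays, with p-values adjusted by Benjamini-Hochberg over the 5244 probe sets that passed a filter on low values. Blockade of the renin-angiotensin system (RAS blockade) is the mean of the ACEI and ARB groups. For RAS blockade minus control D00913_g_at was at -1.37 ± 0.40 (2.59-fold lower, 95% interval -2.29 to -0.46), with an unadjusted p of 0.00833 and an adjusted p of 0.863 in limma. It was at -1.32 ± 0.46 with ACEI (2.49-fold lower, adjusted p = 0.992 in limma) and at -1.42 ± 0.46 with ARB (2.68-fold lower, adjusted p = 0.230 in limma). The drug comparisons share the control arrays. Of the tested probe sets 0.992% had a lower difference for RAS blockade. Relative to the median of all probe sets, which was 0.13, the difference was -1.50.

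No adhesion probe set passed the adjustment in any comparison, and neither did any other probe set. The share called was 0% of 5244 for each of RAS blockade, ACEI and ARB against control and for ARB against ACEI. At an unadjusted p under 0.05 limma had 266, 136, 905 and 1171 probe sets in these comparisons, with lowest adjusted p of 0.0779, 0.148, 0.154 and 0.110. The treated arrays of D00913_g_at all lay below both controls, as did 3.72% of tested probe sets for RAS blockade, 11.9% for ACEI and 16.8% for ARB. It was the 1 member of the 6 tested of which this held for RAS blockade.

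The difference of Icam1 D00913_g_at could not change sign between run days or without 1 control, since all treated arrays lay below both controls. Only its size could vary. ACEI minus control was -1.65 on the first day and -0.99 on the later day, where ARB minus control was -1.42. Leaving out control 1 or control 2 gave -1.37 in both cases for RAS blockade, as the controls were nearly equal.

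The other Icam1 probe set, D00913_at, did not show this separation. Its intensity was 2136 and 286 on the controls, 483 and 538 with ACEI, and 808 and 171 with ARB. The controls differed by 7.48-fold, ARB 2 lay below both of them, and the other 3 treated arrays lay between them. Its difference for RAS blockade was -0.76 ± 0.76 (adjusted p = 0.889 in limma), and it was -2.05 without control 2 and 0.52 without control 1. ACEI minus control was -1.96 on the first run day and 0.74 on the later one, and ARB minus control was 0.37.

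Icam2, the ligand of LFA-1 that resting endothelium carries, was low on the ARB arrays and not on the ACEI arrays. Probe set rc_AI639370_at read 1109 and 1019 in controls, 894 and 1253 with ACEI, and 208 and 257 with ARB. The ARB arrays lay below all 4 others, whose values overlapped between control and ACEI. Group means were 1064 ± 63.7, 1074 ± 254 and 233 ± 34.3 (SD, n = 2 each).

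For ARB minus control Icam2 was at -1.84 ± 0.45 (3.59-fold lower, 95% interval -2.87 to -0.81, unadjusted p = 0.00310 and adjusted p = 0.199 in limma). Relative to the median of all probe sets, at 0.18, it was -2.02, and 1.2% of tested probe sets had a lower difference. For ACEI minus control the interval of the difference ran from -1.03 to 1.03 around a value of -0.0040. The later run day gave 0.28 for ACEI and -1.79 for ARB, and the first run day -0.28 for ACEI. The mean of both drugs was at -0.92 ± 0.39 (1.90-fold lower, interval -1.81 to -0.03, adjusted p = 0.863 in limma), between an ACEI value near 0 and the ARB value.

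ARB minus ACEI tests directly whether the drugs differ, at the 1 dose of each. For Icam2 it was -1.84 ± 0.45 (3.58-fold lower with ARB, unadjusted p = 0.00314 and adjusted p = 0.128 in limma). Both ARB arrays lay below both ACEI arrays, as they did for 25.3% of tested probe sets, and 3.72% of tested probe sets had a lower difference. With array weights the adjusted p in limma was 0.0325, and with the 2 groups alone it was 0.0452. These settings called 518 and 305 of 5244 probe sets. In 13 of 17 alternatives Icam2 did not pass, among them the run day block (adjusted p = 0.145 in limma) and the replicate block (0.0969). For Icam1 D00913_g_at the drugs were at -0.10 ± 0.46, with an interval from -1.16 to 0.95. With 2 arrays per group, differences anywhere in that interval are compatible with these values.

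Several endothelial markers were lower with ARB than with ACEI, as Icam2 was. Of the 11 endothelial marker genes tested 6 had both ARB arrays below both ACEI arrays, against 23% of 3186 genes, and the median of the 11 was -0.94 against 0.19 for all genes. Pecam1 was at 553 and 317 with ARB and at 2728 and 5564 with ACEI, while the receptor gene Flt1 was at 1245 and 132 against 2639 and 1633. Another 2 of the 11 had both ARB arrays above both ACEI arrays, against 38.4% of genes: the thrombin receptor gene Thbd at 3450 and 2584 against 1650 and 921, and the transporter Slco1a4 at 29915 and 31108 against 24227 and 26528. The summed intensity of the list was 67100 and 77002 with ARB, 73943 and 79499 with ACEI, and 70975 and 149650 in controls, sums in which Slc2a1 and Slco1a4 hold the largest part. Against control, 0 of the 11 had both ARB arrays below both controls, and Pecam1 and Flt1 were low on control 2, at 194 and 335. The part of endothelial content in the Icam2 values was not tested.

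**Figure D2:**
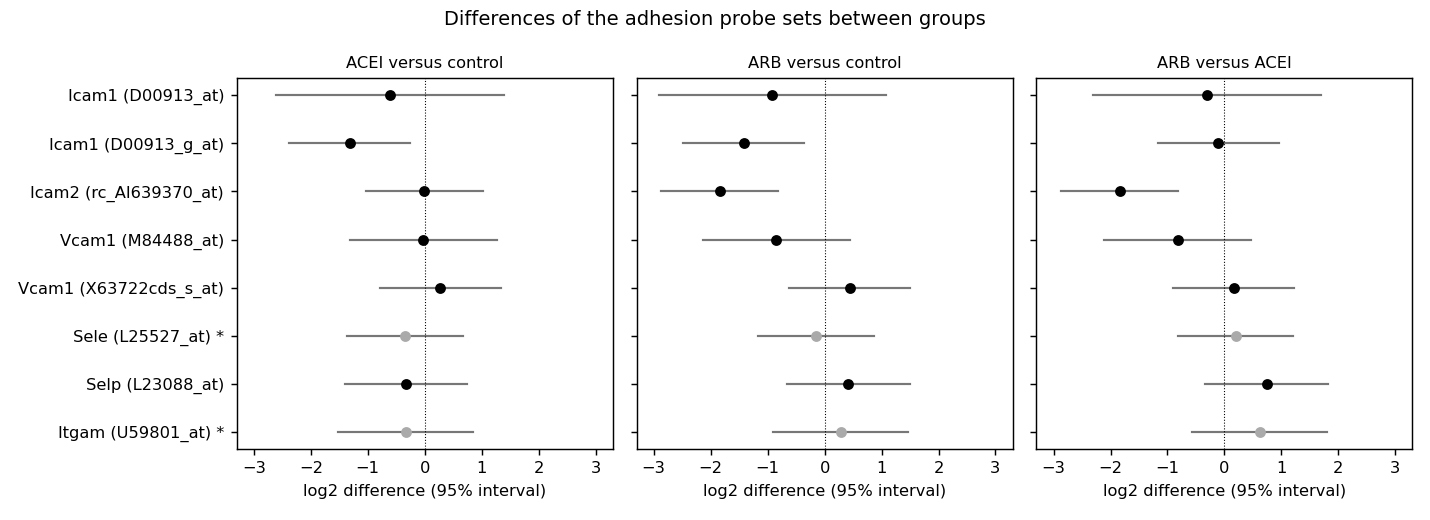
Log2 differences of the 8 adhesion probe sets with 95% intervals for ACEI minus control, ARB minus control and ARB minus ACEI, where an asterisk marks probe sets below the filter on low values. Icam1 D00913_g_at lies near -1.4 in each comparison with control and Icam2 at -1.84 for ARB against either group, and all other intervals cross 0.

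Vcam1, the ligand of the integrin VLA-4 on lymphocytes and monocytes, had 2 probe sets whose differences were of opposite sign for RAS blockade. Probe set M84488_at read 271 and 671 in controls, 417 and 435 with ACEI, and 114 and 328 with ARB. ARB 1 was the lowest, near the 105 of the foreign controls on that array, and ARB 2 lay between the controls. Probe set X63722cds_s_at was at 591 and 345 on the controls, 571 and 565 with ACEI, and 704 and 594 with ARB.

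Both ARB arrays of X63722cds_s_at lay above both controls, as they did for 33.4% of tested probe sets. For RAS blockade M84488_at was at -0.43 ± 0.49 (interval -1.55 to 0.68) and X63722cds_s_at at 0.36 ± 0.40 (interval -0.56 to 1.27), both with an adjusted p of 0.895 in limma. For ARB minus control they were at -0.85 ± 0.57 and 0.44 ± 0.46, and for ACEI at -0.02 ± 0.57 and 0.27 ± 0.46. After quantile normalization X63722cds_s_at was at -0.10 for ARB, so its direction depended on the scaling. That of M84488_at for RAS blockade depended on control 2, without which it was at 0.10. M84488_at had both ARB arrays below both ACEI arrays, as held for 25.3% of tested probe sets, at -0.82 ± 0.57 (adjusted p = 0.419 in limma).

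The selectins showed no separation from controls. Selp, probe set L23088_at, read 319 and 507 in controls, 369 and 249 with ACEI, and 506 and 640 with ARB. The ARB arrays lay above the ACEI arrays, as they did for 37.1% of tested probe sets, and values of both drugs overlapped the controls. RAS blockade minus control was at 0.04 ± 0.41 (interval -0.89 to 0.98, adjusted p = 0.985 in limma), ACEI at -0.33 ± 0.47, ARB at 0.42 ± 0.47 and ARB minus ACEI at 0.74 ± 0.47. After quantile and cyclic loess normalization ARB minus control was at -0.16 and -0.10.

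Platelets also store P-selectin. Of the platelet markers 2 of 2 tested had both ARB arrays above both ACEI arrays, as did 38.4% of all genes. Their summed intensity, over 3 of 6 genes with a probe set, was 1532 and 2380 on the controls, 1077 and 1304 with ACEI, and 2058 and 2029 with ARB. The platelet chemokine Pf4 was at 926 and 1623 on the controls, 435 and 686 with ACEI, and 934 and 980 with ARB. The part of platelets in the Selp values was not tested.

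Sele, the selectin that endothelium makes only when activated, lay below the filter. Probe set L25527_at read 29.9 and 127 in controls, 27.4 and 46.7 with ACEI, and 69 and 42.3 with ARB. On control 2 it stood clear of the foreign-transcript median of 25.8, on ACEI 2 it was at 46.7 against 20.4, and on the remaining arrays it lay close to that median or below it. A difference could not be read from such values: without the filter RAS blockade was at -0.25 ± 0.37, with a sign that turned when control 2 was left out (0.18).

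Itgam, the alpha chain of Mac-1 on neutrophils, monocytes and microglia, also lay below the filter. Probe set U59801_at read 325 and 109 in controls, 138 and 139 with ACEI, and 177 and 371 with ARB. Both ARB arrays lay above both ACEI arrays, as they did for 37.1% of tested probe sets. The controls spanned 2.97-fold. Without the filter RAS blockade minus control was at -0.02 ± 0.43, ACEI at -0.33 ± 0.50 and ARB at 0.28 ± 0.50. The last was at -0.33 after quantile normalization.

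Leukocyte markers gave another view of the cells that carry Mac-1. The summed intensity of 14 of 19 marker genes was 44437 and 41270 on the controls, 20602 and 44871 with ACEI, and 14478 and 15825 with ARB. Both ARB arrays and ACEI 1 were low, and ACEI 2 lay with the controls, while Icam1 D00913_g_at was low on all 4 treated arrays. Of the 11 tested marker genes 9 were lower for RAS blockade, against 43.3% of 3186 genes, and 4 of them had an unadjusted p under 0.05 in limma, against 2.32% of genes. Their median was -0.79 against 0.10 for all genes, and 0 passed the adjustment.

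The neutrophil and monocyte gene S100a9 was at 4805 and 5310 on the controls, 1144 and 3158 with ACEI, and 482 and 792 with ARB. Ptprc, the common leukocyte antigen, was at 525 and 618 on the controls, 366 and 234 with ACEI, and 911 and 719 with ARB, so the markers did not move as 1 group. None of the 14 was at 0 on any array. The part of leukocyte content in the Icam1 values was not tested.

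Some markers of other cells of the vessel and the brain also separated treated from control arrays. The summed intensity of 6 of 7 pericyte and smooth muscle genes was 29555 and 34204 on the controls, 15426 and 13310 with ACEI, and 15331 and 16639 with ARB, low on the same 4 arrays as Icam1 D00913_g_at. Acta2, at 19511 and 23120 on the controls, and Tagln, at 4516 and 7698, held the largest part of these sums. Both had all treated arrays below both controls, as for 4.17% of genes. Treated arrays of Myh11, Cspg4, Pdgfrb and Des overlapped the controls. Of 5 tested 4 were lower for RAS blockade, against 43.3% of genes, with a median of -0.44. At an unadjusted p under 0.05 in limma 2 were lower, against 2.32% of genes, among them the smooth muscle actin gene Acta2 at -1.31. The other probe sets of Acta2 were at 0.05 and 0.03.

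Sums of 8 neuronal genes went the other way, at 2887 and 3494 on the controls, 5347 and 5414 with ACEI, and 6278 and 9173 with ARB. For RAS blockade 7 of 7 tested were higher, where 43.3% of all genes were lower, with a median of 0.61 against 0.10 for all genes. At an unadjusted p under 0.05 in limma 3 were higher, against 2.79% of genes. Astrocyte sums were 19972 and 26072 on the controls, 31270 and 34718 with ACEI, and 10813 and 11940 with ARB. Oligodendrocyte sums were 11620 and 5291 on the controls, 17287 and 16288 with ACEI, and 4743 and 4485 with ARB, so both were high with ACEI and low with ARB. Erythroid sums were highest on control 2, at 162570 against 47556 to 67436 on the other arrays. The part of these cells in the values of Icam1 and Icam2 was not tested.

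**Figure D3:**
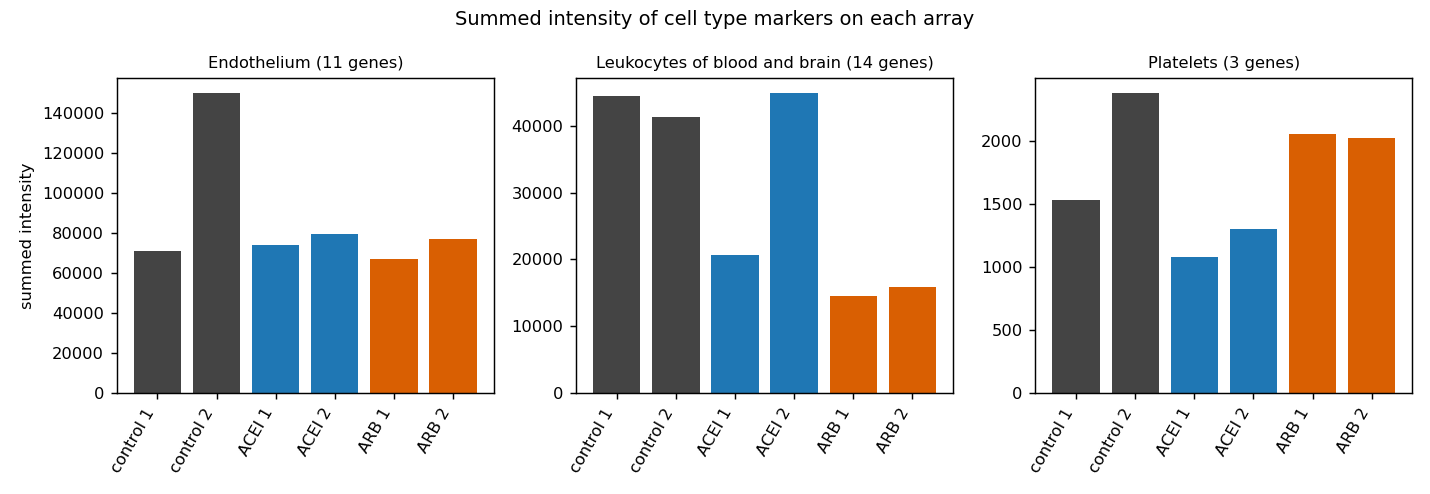
Summed intensity of endothelial (11 genes), leukocyte (14 genes) and platelet (3 genes) markers on each array, 1 bar per array. Leukocyte sums are lowest on the ARB arrays (14478 and 15825), and ACEI 2 (44871) stands with the controls, while the endothelial sum is highest on control 2 (149650).

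More of the 6 tested probe sets lay below 0 than above it. For RAS blockade 4 of 6 were below 0, against 40.4% of all tested probe sets, with a median of -0.60. Of these, 2 were lower at an unadjusted p under 0.05 (D00913_g_at and Icam2), against 2.02% of tested probe sets. For ACEI 5 of 6 were below 0, against 53.1%, with a median of -0.17 and 1 at an unadjusted p under 0.05, against 1.39%. Icam2 at -0.0040 and Vcam1 M84488_at at -0.02, both counted there, lay above the median of all probe sets at -0.04. For ARB 4 of 6 were below 0, against 41.9%, with a median of -0.88 and 2 at that p, against 4.69%. Between ARB and ACEI 1 was lower at that p, against 6.71%. Since Icam1 and Vcam1 each hold 2 of the 6, these are not independent counts.

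**Figure D4:**
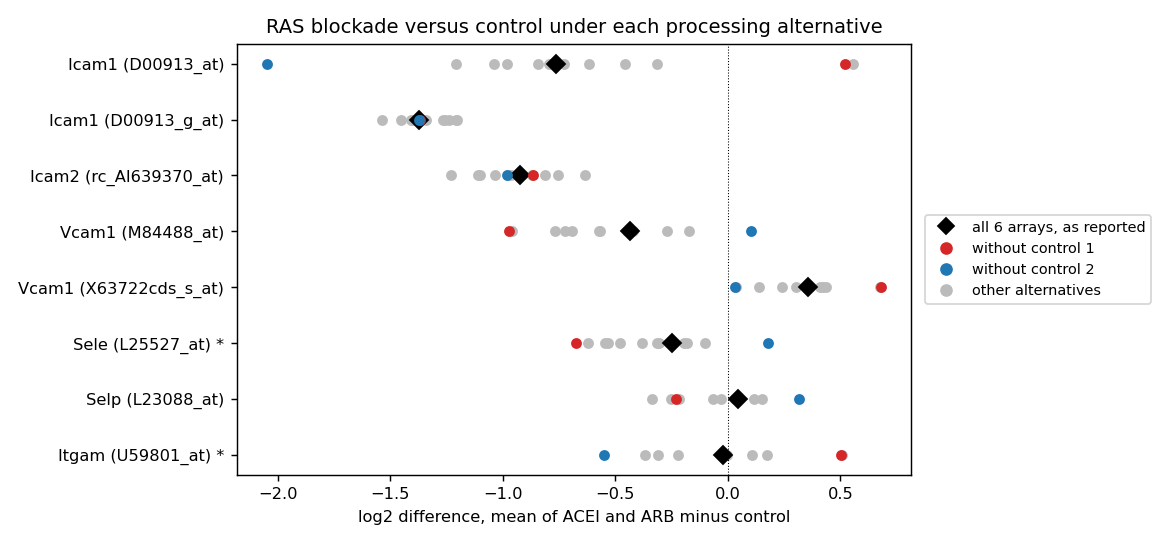
Log2 difference for RAS blockade minus control of each adhesion probe set under each processing alternative. Black diamonds are the values as reported, red points leave out control 1, blue points leave out control 2 and grey points are the other alternatives. An asterisk marks probe sets below the filter. Icam1 D00913_g_at stays between -1.53 and -1.20 and Icam2 between -1.23 and -0.63, while Icam1 D00913_at runs from -2.05 to 0.55.

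The signals that induce these molecules included genes that were low on treated arrays. Of 18 inducer genes 14 had a probe set and 11 were tested. For RAS blockade 8 were lower and 3 higher, against 43.3% of genes lower, with a median of -0.25. At an unadjusted p under 0.05 in limma 3 were lower, against 2.32% of genes. The cytokine gene Il1b read 3427 and 9034 in controls, 870 and 1798 with ACEI, and 1368 and 1501 with ARB, a difference of -1.98 (adjusted p = 0.863 in limma). Its other probe sets were at -0.93 and -2.38.

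Il1a, which acts on the same receptor, was at 2650 and 2968 on the controls, 940 and 619 with ACEI, and 1314 and 1599 with ARB, a difference of -1.34 (other probe set -1.56). For both interleukins all treated arrays lay below both controls, as they did for 4.17% of genes. Nfkbia, the inhibitor that NF-kappa-B itself induces, was at 10611 and 6075 on the controls, 3476 and 7094 with ACEI, and 1672 and 1164 with ARB. Its difference was -1.57, and -0.21 at its other probe set. ACEI 2 lay between the controls, and the ARB arrays lay lowest.

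Partners on the selectin side were thinly covered, with 4 of 11 genes measured and 2 tested. Glycam1, a mucin that presents sugars to L-selectin, was at 3662 and 13764 on the controls, 2987 and 1452 with ACEI, and 1584 and 2603 with ARB. All treated arrays lay below both controls, as for 4.17% of genes, and control 2 was the highest. Its difference was -1.75 (adjusted p = 0.863 in limma). Cd24, a ligand of P-selectin, was at -0.16, and 0.63 at its other probe set.

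Of 10 other integrin subunits 5 were tested, and 4 were lower and 1 higher for RAS blockade, with a median of -0.43 and 0 at an unadjusted p under 0.05 in limma. Itgb1, the beta chain of VLA-4 and of matrix receptors, was at 9652 and 11485 on the controls, 5389 and 10116 with ACEI, and 5730 and 5220 with ARB, a difference of -0.72. ACEI 2 lay between the controls. Itga1 and Itga7, alpha chains of a collagen and a laminin receptor, were at -0.60 and -0.43, and Itga7 was at 0.24 and 0.31 by its remaining probe sets.

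Among 17 immunoglobulin-like and junctional genes 10 were measured and 7 tested, with 2 lower and 5 higher and a median of 0.18. Madcam1, an addressin that binds the integrin alpha-4 beta-7, was at 568 and 660 on the controls, 699 and 343 with ACEI, and 1554 and 1798 with ARB. Both ARB arrays lay above both controls, as for 33.5% of genes, and above both ACEI arrays, as for 38.4% of genes. Thy1, a surface protein of neurons and activated endothelium, was at 0.74 (0.30 at its other probe set) for RAS blockade, and Cd48, a leukocyte receptor, at -0.48.

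The proteins that tie adhesion molecules to the cytoskeleton were split. Of 7 genes 4 were tested, with 2 lower and 2 higher and a median of -0.21. Tln1, which encodes talin and links integrins to actin, was at 3530 and 2063 on the controls, 1932 and 1967 with ACEI, and 555 and 787 with ARB. All treated arrays lay below both controls, at -1.17 (unadjusted p = 0.0217, adjusted p = 0.863 in limma). Ezr, which binds the tail of ICAM molecules, was at -0.47, and Actn4 and Msn were both at 0.05. Over all 3186 genes, each by its brightest probe set, 43.3% were lower for RAS blockade, and the median was 0.10. At an unadjusted p under 0.05 in limma 2.32% were lower and 2.79% higher. All treated arrays lay below both controls for 4.17% of genes.

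For ARB minus control the medians were -0.13 for the integrins, -0.92 on the selectin side, 0.71 for the immunoglobulin-like genes, -0.75 for the inducers and -1.0004 for the anchors, against 0.17 for all genes. For ACEI they were -0.51, -0.98, -0.13, -0.65 and 0.28, against -0.07. In no list did a gene pass the adjustment.

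Among 4313 other tested probe sets with 1 gene symbol, those most like Icam1 D00913_g_at by Pearson r of log2 values over the 6 arrays were Alox15, a lipoxygenase of macrophages and eosinophils (r = 0.993), Ybx3, a cold shock domain protein (0.957), LOC102548459 (0.956), the transcription factor gene Myc (0.955) and Egfl7, a factor secreted by endothelium (0.95). Their differences for RAS blockade were -4.66, -2.01, -1.002, -0.57 and -0.89. The most like Icam2 was Ap2m1 of clathrin-coated vesicles (r = 0.994), the most like Vcam1 X63722cds_s_at was the proton pump subunit Atp6v1b2 (0.986), and the most like Selp was the adenylyl cyclase Adcy3 (0.99). These r values were the highest of 4313 or 4314 candidates over 6 arrays, and they are given as a description.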

How the data were processed

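Each probe set had 1 deposited intensity per array, linear and scaled so that the mean trimmed by 2% at either end was 997.7 to 1002. For software and background correction the sources used here give nothing. Run days, chip lots and fluidics protocols come from the run files, per the file headers. Genes came from the array's annotation: 7018 probe sets had 1 symbol, 308 several and 1473 none, and all 6 measured member genes were in the RefSeq table. The 59 control probe sets and the dimmest 40% of the others (by mean log2 value) were left out. Intensity plus 90 (the median positive value of 358.3 divided by 4, rounded) was taken as log2 and fitted with limma 3.58.1 in R 4.3.3, 1 mean per group and two-sided p-values (residual df 3, prior df 5.49). Members below the filter took values from the fit without it. With 2 arrays per group precision is limited.

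The members and lists were chosen with earlier results of these data known. Named were all members, the 3 genes of each list with the smallest unadjusted p for RAS blockade, and the genes most like a member (5 for Icam1, 1 for each other tested member). Other genes named beside these (markers, Ezr, Actn4 and Msn) were chosen after their values were seen. The fit was tested on simulated data. Python 3.11.15, pandas 2.3.3 and matplotlib 3.10.9 served for sequences and figures.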

Additional observations from a re-analysis of the deposited data

How the results depend on the processing

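The alternatives were an offset of 1 or of the median, no filter or one of 60%, quantile or cyclic loess normalization, the replicate number or run day as a block, the later run day alone, the groups compared alone, array weights, and leaving out each array. The filters, the replicate block, array weights and the groups compared alone left each member difference as reported. They changed only its SE and p, so part of the following count was fixed in advance. The same holds for leaving out an array of a group not compared. Of 512 values of the 32 member differences under the alternatives, 462 kept their direction and side of the threshold, 46 turned sign and 4 (Icam2, ARB minus ACEI) passed it in limma. Icam1 D00913_g_at kept its sign against control throughout: -1.53 to -1.20 for RAS blockade, -1.65 to -0.99 for ACEI and -1.59 to -1.18 for ARB. With 1 array left out, or on the later run day alone, its sign could not turn, since all treated arrays lay below both controls. Icam2 ran from -1.23 to -0.63 for RAS blockade, from -2.36 to -1.27 for ARB (adjusted p 0.088 to 0.646) and from -2.26 to -1.27 for ARB minus ACEI (adjusted p 0.0325 to 0.681). Where values turned, the cause was not tested.

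The count of probe sets called, 0 in each comparison as reported, became 3, 3, 4 and 4 (RAS blockade, ACEI, ARB, ARB minus ACEI) with an offset equal to the median, and 1 for RAS blockade after quantile and after cyclic loess normalization. With the replicate block it was 3, 2, 4 and 1. The replicate number follows the fluidics protocol, which was the same for same-numbered arrays of all groups. The deviations of same-numbered arrays correlated at 0.0453, -0.0153 and -0.00374, and the block changed no member's call. For ARB minus ACEI it was 518 with array weights and 305 with the groups compared alone, which cannot apply to RAS blockade. Leaving out 1 array gave 0 to 60 (60 without control 1 and 2 without control 2) for RAS blockade, 0 to 261 (without control 1) for ACEI, 0 to 46 (without control 2, and 15 without control 1) for ARB and 0 to 305 (without either control) for ARB minus ACEI. A lone control array is assumed there to vary like the other groups.

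Member probe sets lower with ACEI numbered 5, against 3 with the lowest 60% left out, 3 on the later run day alone and 3 to 5 with 1 array left out. For RAS blockade 1 member had all treated arrays below both controls. The count of members below every control array kept was 2 on the later run day alone. It was 1 to 2 with 1 array left out. Control 2 was the only control on the later run day and when control 1 was left out. In both settings Vcam1 X63722cds_s_at lay above it on all treated arrays kept (345 against at least 565) and is not in these counts. The share of all tested probe sets is not given for these settings.

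On the later run day alone Icam1 D00913_at was at 0.55 for RAS blockade, 0.74 for ACEI and 0.37 for ARB, Selp at -0.34 for RAS blockade, Icam2 at 0.28 for ACEI, and Itgam at 0.51 for RAS blockade and 0.20 for ACEI. With the run day as a block Icam1 D00913_at was at 0.30 and Sele at -0.073 for ARB minus ACEI, and Itgam at 0.11 for RAS blockade. The median of all probe sets for RAS blockade, 0.13, was -0.03 after quantile and 0.02 after cyclic loess normalization, and that for ARB, 0.18, was -0.07 and -0.0010. After quantile normalization Selp was at -0.25 for RAS blockade and -0.16 for ARB, Itgam at -0.33 for ARB and -0.030 for ARB minus ACEI, Vcam1 X63722cds_s_at at -0.10 and -0.28, and Sele at -0.32 for ARB minus ACEI. After cyclic loess normalization Selp was at -0.22 and -0.10, Itgam at -0.43 and -0.13, Vcam1 X63722cds_s_at at -0.23 for ARB minus ACEI, Sele at -0.44 and Icam1 D00913_g_at at 0.12 for ARB minus ACEI.

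With 1 array left out Icam1 D00913_at ran from -2.05 to 0.52 for RAS blockade, -1.89 to 0.68 for ACEI, -2.20 to 0.37 for ARB and -1.20 to 0.58 for ARB minus ACEI, where D00913_g_at ran from -0.43 to 0.22. Selp ran from -0.23 to 0.32 for RAS blockade, and Sele from -0.68 to 0.18, -0.77 to 0.079 and -0.58 to 0.27 for RAS blockade, ACEI and ARB. Vcam1 M84488_at ran from -0.97 to 0.10 for RAS blockade and -0.56 to 0.51 for ACEI, and X63722cds_s_at from -0.050 to 0.60 for ACEI. Icam2 ran from -0.23 to 0.22 for ACEI, and Itgam from -0.55 to 0.50, -0.86 to 0.20 and -0.24 to 0.81 for RAS blockade, ACEI and ARB.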
